A study of Mus musculus with 53 samples.

Results

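RNA was sequenced from mouse embryonic fibroblasts (MEFs) labelled as a knockout of Anp32e (KO) after decitabine (DAC) or after DMSO. The comparison described here sets 3 KO DAC libraries against 2 KO DMSO libraries. It covers the 16434 genes, of 43432 in the deposited table, that reached 1 FPKM or more in at least 2 of the table's 10 libraries. FPKM is the number of fragments per kilobase of gene, scaled to the size of the library. The table also holds 3 WT DAC and 2 WT DMSO libraries from wild-type MEFs, which are used beside the KO values only to show where the KO response differed. The whole series has 53 samples, of which 22 are RNA libraries, and 12 of those received siRNA in place of DAC and stand in a separate table in RPKM. The siRNA control is labelled NT, and its KO libraries (n = 3) are quoted as further levels of undrugged KO cells, with no test across the tables. The labels give neither the dose nor the duration of DAC, nor the knockout allele, the sex or the age of the embryos, nor whether cells were pooled or are 1 line. They call the libraries biological replicates without saying that these are separate cultures, so p-values measure only the spread between these samples.

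ANP32E is a histone chaperone that removes the variant histone H2A.Z from chromatin. H2A.Z and DNA methylation tend to occupy different parts of the genome. Decitabine is a cytidine analogue that is built into DNA and traps DNA methyltransferases there, so that methylation is lost as cells divide. In many cell types this switches on germline genes that promoter methylation keeps silent, and retroelements whose double-stranded RNA is read by cytosolic sensors and leads to an interferon response. The trapped enzyme also damages DNA, which activates the tumour suppressor p53. Mesothelium is the lining of the body cavities, an epithelial-like layer of mesodermal origin.

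With DAC 3889 genes rose (23.7% of the genes tested) and 3542 fell (21.6%), and 583 (3.55%) and 913 (5.56%) did so by at least 2-fold. A gene is said to have risen or fallen only where its limma p-value, adjusted by the Benjamini-Hochberg method over all 16434 genes, was under 0.05. Fold changes are on the scale of log2(FPKM + 1) ± standard error, which understates the change of low genes. A bare value in brackets after a gene is its log2 fold change in KO. Counts of risen and fallen members of a gene list in KO are to be read beside the 23.7% and 21.6% of all genes. The median log2 fold change of all genes was 0.009, and 5% of genes lay below −1.08 and 5% above 0.86. The KO DAC and KO DMSO libraries did not overlap in 10618 genes (64.6%). In WT 2384 genes rose (14.5%) and 2274 fell (13.8%), with 319 (1.94%) and 277 (1.69%) changed by at least 2-fold. The difference between the responses, KO minus WT, passed for 24.1% of genes, upward for 2032 genes (12.4%) and downward for 1928 (11.7%), and for 370 (2.25%) and 796 (4.84%) it was at least 2-fold. Of the genes risen in KO 40.7% rose in WT and 5.84% fell, and of those fallen in KO 32.4% fell in WT and 6.89% rose.

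Besides these counts, 3 properties of the libraries bear on every result. The KO DMSO libraries stood apart from all 8 others on the first principal component (46.7% of the variance), at 66.2 and 66.8, against −29.9 to −1.88 for the others. The summed level of the 23 mesothelial markers in the table was 320.0 to 341.6 FPKM in KO DAC and 1460.1 to 1488.9 FPKM in KO DMSO, against 186.4 to 203.6 FPKM in WT DAC and 171.6 to 172.8 FPKM in WT DMSO. In the separate table the KO NT siRNA libraries held 400.1 to 432.2 RPKM of them, and the WT NT siRNA libraries 192.0 to 199.6 RPKM. Members of the mesothelial list were chosen with earlier results of these data known, so its sums are in part set by that choice. Of the markers Calb2 and Tcf21 were listed at 0 in every KO library, and Lrrn4, Gpm6a and Calb2 in both WT DMSO libraries. Epithelial markers summed to 27.5 to 35.2 FPKM in KO DAC and 40.7 to 44.3 FPKM in KO DMSO. Cartilage and bone markers summed to 724.0 to 780.0 FPKM in KO DAC and 621.8 to 671.4 FPKM in KO DMSO. Neural and glial markers summed to 31.7 to 37.2 FPKM in KO DAC and 22.3 FPKM in each KO DMSO library, and adipocyte markers to 65.0 to 71.2 FPKM in KO DAC and 69.5 to 71.1 FPKM in KO DMSO. The part of these markers in the results was not tested. Medians of whole chromosomes also moved with DAC in KO, as given at the end. Whatever sets the KO DMSO cultures apart cannot be told apart from DAC, and both KO DMSO libraries share it, so no comparison of KO can be made without it. In bulk samples fewer cells of a type and less RNA per cell cannot be told apart either. Depth was 27503472 to 36910532 reads per library, so that 1 read in a gene of 1 kb was worth 0.0271 to 0.0364 FPKM.

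The labels were checked against defining genes. Anp32e (ENSMUSG00000015749, chromosome 3, 95929245 to 95947387 in mm10) was at 6.34, 7.05 and 7.48 FPKM in KO DAC, against 5.31 and 4.87 FPKM in KO DMSO, and all KO libraries lay below the 14.0 to 17.2 FPKM of the WT libraries. Transcript was thus lower but still present in KO, and it rose with DAC (limma log2 fold change 0.38 ± 0.09, adjusted p = 0.00891). Without KO DMSO replicate 2 the limma adjusted p was 0.0708, and after chromosome centring it was 0.113. H2afz, which encodes H2A.Z.1, had 96.8, 127 and 127 FPKM in KO DAC, against 81.9 and 88.5 FPKM in KO DMSO, and the change did not pass (limma log2 fold change 0.44 ± 0.16, adjusted p = 0.051). It passed without KO DAC replicate 1, the lowest of its group (limma adjusted p = 0.0151), and on reads recovered from the FPKM values (0.0172). H2afv, which encodes H2A.Z.2, fell, with 18.1, 19.6 and 19.3 FPKM in KO DAC, against 31.6 and 29.9 FPKM in KO DMSO (limma log2 fold change −0.67 ± 0.10, adjusted p = 0.000587). Of the genes that place or remove H2A.Z, 4 of 21 rose and 3 fell, among them the helicase subunit Ruvbl2 (0.78) and the ANP32E relative Anp32a (−0.79). These shares are near those of all genes, and without either KO DMSO library 2 rose. Fibroblast markers were present in both KO groups: of 16 fibroblast markers 14 were at 1 FPKM or more in every KO library, and their summed level was 1959.5 to 2159.7 FPKM in KO DAC and 2169.7 to 2204.1 FPKM in KO DMSO. Mesothelial markers, which summed to 1460.1 to 1488.9 FPKM in KO DMSO, were present as well. This check therefore does not separate fibroblasts from mesothelial cells. Endothelial, macrophage, skeletal muscle and erythroid markers summed to at most 15.8 FPKM in any KO DAC library and 11.7 FPKM in any KO DMSO library. Y-linked Eif2s3y, Ddx3y and Uty were present in KO and at most 0.0745 FPKM in every WT library, so any difference between KO and WT also holds a difference of sex and origin.

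Starts of 10 of the genes described here are printed to show where GAAA repeats and CG lie in them. Each line gives 250 bases before to 50 after the start of a gene, from RefSeq on GRCm38.p6 (the assembly of mm10). In interferon-induced genes the site read by the complex that interferon activates is made of repeated GAAA. Capitals mark GAAA, any 2 bases and GAAA on either strand (TTTC, any 2 bases and TTTC as read here), and overlapping matches run together. Such a match was found in 1131 of all 32851 windows (3.44%). These 5 genes were chosen after their values were seen, as genes with a match. 
Oas3 (chr5:120777610-120777909, minus strand): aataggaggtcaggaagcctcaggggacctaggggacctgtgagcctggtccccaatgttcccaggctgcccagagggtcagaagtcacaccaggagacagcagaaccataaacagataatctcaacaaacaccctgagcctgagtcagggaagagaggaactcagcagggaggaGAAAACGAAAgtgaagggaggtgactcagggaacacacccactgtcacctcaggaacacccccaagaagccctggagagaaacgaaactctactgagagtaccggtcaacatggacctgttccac
Isg15 (chr4:156200769-156201068, minus strand): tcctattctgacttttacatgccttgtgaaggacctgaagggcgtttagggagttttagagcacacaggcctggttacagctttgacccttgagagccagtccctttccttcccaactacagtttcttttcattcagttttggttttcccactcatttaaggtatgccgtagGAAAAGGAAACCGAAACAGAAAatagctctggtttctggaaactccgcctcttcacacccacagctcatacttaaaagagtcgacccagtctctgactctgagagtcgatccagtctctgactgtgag
Ifit1 (chr19:34640639-34640938, plus strand): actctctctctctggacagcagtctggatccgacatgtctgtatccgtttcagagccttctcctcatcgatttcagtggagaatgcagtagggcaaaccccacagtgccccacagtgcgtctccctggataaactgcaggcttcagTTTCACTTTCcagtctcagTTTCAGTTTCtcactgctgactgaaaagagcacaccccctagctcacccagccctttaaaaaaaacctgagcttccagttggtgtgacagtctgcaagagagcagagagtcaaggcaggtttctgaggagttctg
Bst2 (chr8:71537423-71537722, minus strand): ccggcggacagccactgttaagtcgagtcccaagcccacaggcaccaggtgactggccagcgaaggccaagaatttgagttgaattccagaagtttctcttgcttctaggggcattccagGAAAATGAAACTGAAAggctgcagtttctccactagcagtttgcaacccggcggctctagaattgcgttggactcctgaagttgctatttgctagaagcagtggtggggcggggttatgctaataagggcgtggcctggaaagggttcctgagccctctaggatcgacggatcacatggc
Irgm1 (chr11:48871371-48871670, minus strand): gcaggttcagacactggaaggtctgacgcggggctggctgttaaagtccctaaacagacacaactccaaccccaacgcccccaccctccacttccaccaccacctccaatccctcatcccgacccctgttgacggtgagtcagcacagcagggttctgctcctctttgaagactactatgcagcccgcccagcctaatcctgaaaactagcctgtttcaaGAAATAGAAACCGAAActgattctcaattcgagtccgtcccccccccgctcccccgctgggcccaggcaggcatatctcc
The windows hold 1, 3, 2, 2 and 2 matches in that order. A match is a description of the letters, not a measured site. Windows were given for 29 of the 39 tested interferon-induced effectors, and 13 of these hold a match.

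In the next 5 windows, of germline genes and of Apob, the gene with the largest rise on the scale of log2(FPKM + 1), capitals mark each CG, the dinucleotide at which mammalian DNA is methylated. All windows have a median of 7 CG, and 43.5% have at least 10.
Dazl (chr17:50293571-50293870, minus strand): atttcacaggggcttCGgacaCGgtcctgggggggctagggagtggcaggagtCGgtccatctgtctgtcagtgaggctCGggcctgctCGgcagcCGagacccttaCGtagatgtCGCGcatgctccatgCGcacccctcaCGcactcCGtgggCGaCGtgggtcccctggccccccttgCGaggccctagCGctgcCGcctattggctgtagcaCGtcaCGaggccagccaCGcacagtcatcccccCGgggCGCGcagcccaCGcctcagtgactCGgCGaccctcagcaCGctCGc
Tuba3b (chr6:145615713-145616012, plus strand): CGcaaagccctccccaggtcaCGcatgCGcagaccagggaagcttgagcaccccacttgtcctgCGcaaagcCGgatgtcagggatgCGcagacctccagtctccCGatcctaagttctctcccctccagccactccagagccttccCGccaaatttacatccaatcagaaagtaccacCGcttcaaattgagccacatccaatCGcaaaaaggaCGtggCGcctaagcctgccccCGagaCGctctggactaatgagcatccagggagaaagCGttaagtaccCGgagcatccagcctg
Tex19.1 (chr11:121145893-121146192, plus strand): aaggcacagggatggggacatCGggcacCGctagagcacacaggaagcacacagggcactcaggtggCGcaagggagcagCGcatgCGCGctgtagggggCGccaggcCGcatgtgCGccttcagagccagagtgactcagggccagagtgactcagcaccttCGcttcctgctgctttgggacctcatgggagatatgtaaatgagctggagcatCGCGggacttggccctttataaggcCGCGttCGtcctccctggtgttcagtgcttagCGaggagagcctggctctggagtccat
Rhox5 (chrX:37754358-37754657, plus strand): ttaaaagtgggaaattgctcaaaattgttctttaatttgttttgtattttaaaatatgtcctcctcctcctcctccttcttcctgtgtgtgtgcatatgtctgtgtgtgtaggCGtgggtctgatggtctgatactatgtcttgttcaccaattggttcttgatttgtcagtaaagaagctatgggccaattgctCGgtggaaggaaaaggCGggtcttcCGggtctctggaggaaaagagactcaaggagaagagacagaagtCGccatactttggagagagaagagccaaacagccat
Apob (chr12:7977427-7977726, plus strand): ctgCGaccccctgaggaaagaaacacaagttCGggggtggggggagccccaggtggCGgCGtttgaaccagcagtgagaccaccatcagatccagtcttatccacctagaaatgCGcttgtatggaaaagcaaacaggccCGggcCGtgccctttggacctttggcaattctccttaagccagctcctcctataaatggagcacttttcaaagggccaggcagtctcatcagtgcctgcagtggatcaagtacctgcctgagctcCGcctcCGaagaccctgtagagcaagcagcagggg
Dazl has 28 CG in its window, Tuba3b 16, Tex19.1 16, Apob 9 and Rhox5 5. Windows were given for 60.5% of the genes tested, under the 80% needed, so a comparison of CG content or motifs between all risen and all fallen genes is void and was not made. Methylation itself was not measured in these libraries.

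Interferon-induced effectors, the proteins that block viral replication, rose almost as a whole. Of 39 tested members 36 rose and 1 fell (23.7% and 21.6% of all genes), with a median log2 fold change of 1.72 (0.009 over all genes), and 32 rose by at least 2-fold. In WT 29 rose and 0 fell, and the KO response was above the WT response for 28 and below it for 1. Oas3 (ENSMUSG00000032661, chromosome 5, 120753098 to 120777684), whose product makes the messenger that activates RNase L, was at 30.2, 31.1 and 30.3 FPKM in KO DAC, against 0.487 and 0.61 FPKM in KO DMSO (limma log2 fold change 4.35 ± 0.07, adjusted p = 1.31e-08). Its relatives followed: Oas2 was at 43.3, 45.2 and 49.8 FPKM in KO DAC, against 3.29 and 3.97 FPKM in KO DMSO (limma log2 fold change 3.35 ± 0.09, adjusted p = 7.45e-08). Oasl1, a relative that regulates IRF7, was at 36.4, 44.9 and 41.4 FPKM in KO DAC, against 2.87 and 3.79 FPKM in KO DMSO (limma log2 fold change 3.28 ± 0.16, adjusted p = 8.88e-07). In each the lowest DAC library was several times the highest DMSO library. Oas3 was under 1 FPKM in every DMSO library of both genotypes and passed the filter only through DAC libraries. Its p-value is thus no further support for a rise. Trim30a, a TRIM family member, was at 20.8, 21.1 and 21.7 FPKM in KO DAC, against 3.12 and 2.62 FPKM in KO DMSO (limma log2 fold change 2.52 ± 0.07, adjusted p = 1.03e-07). The other 3 effectors whose starts are printed above, which lie outside the rule for named genes, rose too. Isg15, a ubiquitin-like modifier, was at 84.1, 119 and 116 FPKM in KO DAC, against 18.1 and 23.1 FPKM in KO DMSO (limma log2 fold change 2.31 ± 0.25, adjusted p = 0.000102). Ifit1, which binds RNA that lacks the host cap, was at 86.8, 91.3 and 86.3 FPKM in KO DAC, against 22.6 and 25 FPKM in KO DMSO (limma log2 fold change 1.85 ± 0.06, adjusted p = 1.06e-07). Bst2, the tether of budding viruses, was at 136, 188 and 191 FPKM in KO DAC, against 42.3 and 43.4 FPKM in KO DMSO (limma log2 fold change 1.96 ± 0.18, adjusted p = 3.77e-05). KO DAC replicate 1 was the lowest of its group for Isg15 and Bst2 but lay above both DMSO libraries. Ifit1bl1 fell, averaging 0.567 ± 0.159 FPKM in KO DAC, against 1.83 ± 0.502 FPKM in KO DMSO (SD, n = 3 and 2), and Sp100 and Oas1c did not pass (−0.04 and 0.27). The handling of reads that fit several near-identical genes is not given in the sources used here, so single values of the Oas1, Ifit, Gbp, Tgtp, Ifi200 and H2-Q genes are uncertain.

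**Figure D1:**
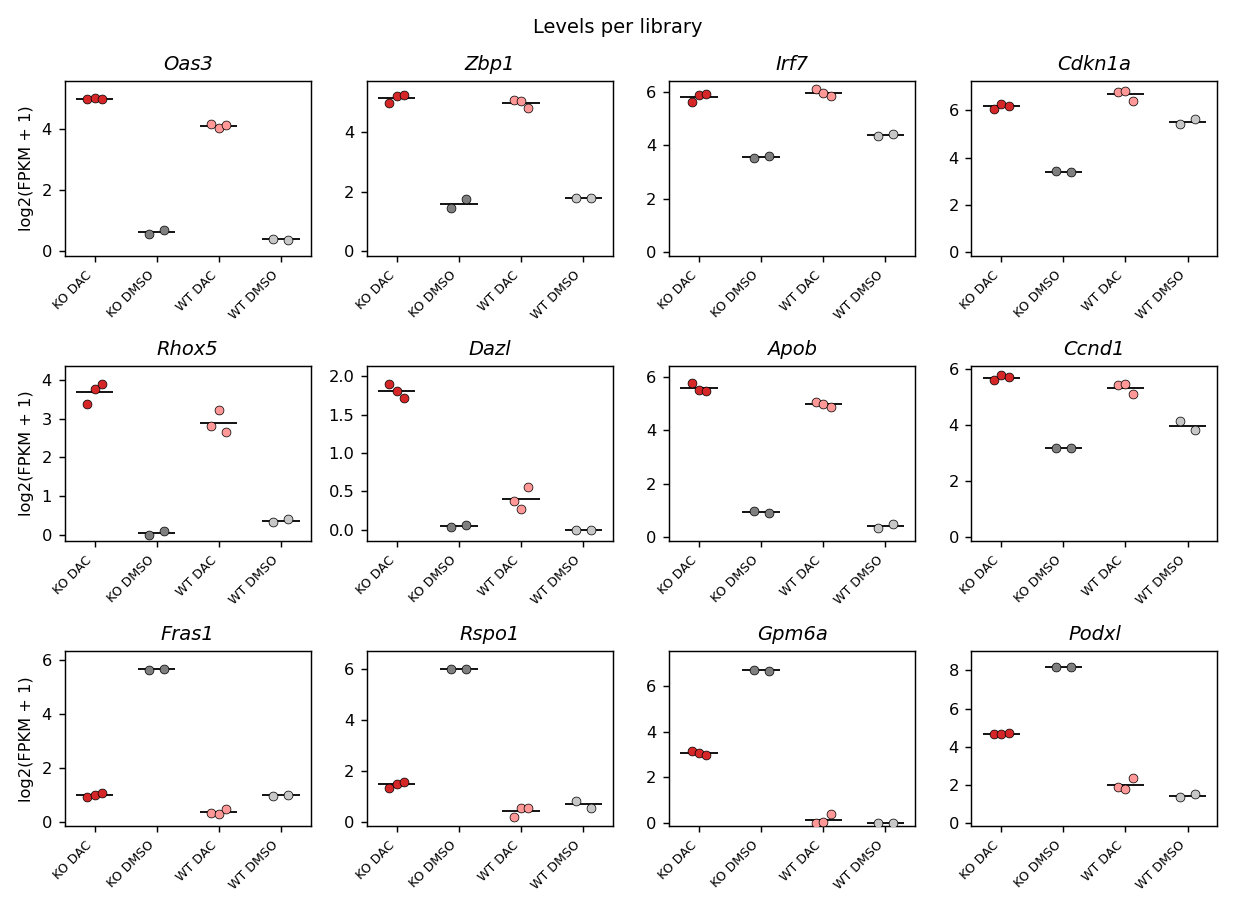
Levels of 12 genes on the scale of log2(FPKM + 1) in each library (points) with the group mean (bar), for KO DAC (n = 3), KO DMSO (n = 2), WT DAC (n = 3) and WT DMSO (n = 2). In the upper 2 rows KO DAC lies above KO DMSO in every library, as WT DAC lies above WT DMSO, while Fras1, Rspo1, Gpm6a and Podxl in the lowest row are highest in the 2 KO DMSO libraries, with Rspo1, Gpm6a and Podxl also higher in KO DAC than in both WT groups.

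The interferon-induced GTPases, which attack the vacuoles of intracellular microbes, all rose (12 of 12, median 1.58). Gvin1, a very large member, was at 88.8, 85.5 and 84.9 FPKM in KO DAC, against 8.79 and 7.97 FPKM in KO DMSO (limma log2 fold change 3.22 ± 0.08, adjusted p = 7.45e-08). Tgtp2 was at 18.5, 19.5 and 19.4 FPKM in KO DAC, against 2.75 and 3.36 FPKM in KO DMSO (limma log2 fold change 2.32 ± 0.08, adjusted p = 1.36e-07). Irgm1, which regulates the other members, was at 34, 33.9 and 31 FPKM in KO DAC, against 14.1 and 13.9 FPKM in KO DMSO (limma log2 fold change 1.18 ± 0.07, adjusted p = 2.31e-06). Among sensors of nucleic acid and their adaptors 14 of 18 rose and 1 fell (median 1.17). Zbp1 (ENSMUSG00000027514, chromosome 2, 173206612 to 173218959), a sensor of left-handed nucleic acid, was at 30.7, 35.6 and 37 FPKM in KO DAC, against 1.71 and 2.36 FPKM in KO DMSO (limma log2 fold change 3.55 ± 0.12, adjusted p = 1.47e-07). The RNA helicase sensors Dhx58 (2.01), Ifih1 (1.63) and Ddx58 (1.34) rose, as did the DNA sensor Cgas (1.14) and the RNA editor Adar (1.36), all but Dhx58 chosen after their values were seen. The adaptors Mavs and Tmem173, through which RNA and DNA sensors signal, did not pass, with Mavs at 8.83 ± 0.508 FPKM in KO DAC, against 8.29 ± 0.153 FPKM in KO DMSO and Tmem173 at 25 ± 1.29 FPKM in KO DAC, against 25.1 ± 0.892 FPKM in KO DMSO (SD, n = 3 and 2). The one member that fell was Nod1, a receptor for bacterial peptides, at 2.91, 4.31 and 3.79 FPKM in KO DAC, against 25.1 and 26.1 FPKM in KO DMSO (limma log2 fold change −2.52 ± 0.13, adjusted p = 1.51e-06).

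Signalling genes between the sensors and the effectors moved less evenly. Of 19 STAT, IRF and SOCS genes 10 rose and 2 fell (median 0.369). Irf7 (ENSMUSG00000025498, chromosome 7, 141263183 to 141266499), the factor that amplifies interferon production, was at 48, 58.7 and 59.5 FPKM in KO DAC, against 10.5 and 11 FPKM in KO DMSO (limma log2 fold change 2.25 ± 0.11, adjusted p = 8.24e-07). Usp18, which removes ISG15 and restrains the receptor, was at 56.5, 61.4 and 64.9 FPKM in KO DAC, against 13.9 and 13.3 FPKM in KO DMSO (limma log2 fold change 2.08 ± 0.08, adjusted p = 2.66e-07). Stat2 rose (1.39), with a smaller rise of Irf9 (0.39). Irf5 fell, at 3.87, 4.17 and 4.78 FPKM in KO DAC, against 23.2 and 28.3 FPKM in KO DMSO (limma log2 fold change −2.34 ± 0.11, adjusted p = 8.95e-07), as did Stat3 (−0.601). Of 13 interferon ligand and receptor genes 6 were tested: the receptor chain Ifngr1 rose (0.34), while Ifnar1 (−0.45), Ifnar2 (−0.33), Il10rb (−0.41) and Ifnlr1 (−0.98) fell. The falls of Ifnar2 and Il10rb and the rise of Ifngr1 each lost the call without 1 KO DMSO library (limma adjusted p = 0.0988, 0.0878 and 0.0621 in that order).

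Antigen presentation by MHC class I split. Of 21 genes 15 rose and 4 fell (median 0.575). Genes that cut and load peptides rose: the immunoproteasome subunit Psmb8 was at 3.77, 4.62 and 5.05 FPKM in KO DAC, against 0.651 and 1.33 FPKM in KO DMSO (limma log2 fold change 1.48 ± 0.16, adjusted p = 9.77e-05). The trimming peptidase Erap1 was at 11.2, 9.5 and 10.3 FPKM in KO DAC, against 3.99 and 3.23 FPKM in KO DMSO (limma log2 fold change 1.301 ± 0.10, adjusted p = 1.63e-05). The transporter Tap1 was at 15.9, 17.6 and 18.6 FPKM in KO DAC, against 7.26 and 8.35 FPKM in KO DMSO (limma log2 fold change 1.06 ± 0.08, adjusted p = 1.6e-05). The 4 that fell were class I heavy chains. H2-K1 was at 45.4, 61.7 and 58.7 FPKM in KO DAC, against 83.4 and 88 FPKM in KO DMSO (limma log2 fold change −0.64 ± 0.17, adjusted p = 0.0141). H2-Q6 was at 18.4, 23.8 and 22.1 FPKM in KO DAC, against 57.6 and 64.2 FPKM in KO DMSO (limma log2 fold change −1.47 ± 0.20, adjusted p = 0.000444). H2-Q4 (−0.59) and H2-Q7 (−1.34) were the others. In WT all 4 rose, H2-K1 being at 66.3 ± 9.72 FPKM in WT DAC, against 13.3 ± 2.54 FPKM in WT DMSO (n = 3 and 2), and the KO minus WT difference passed for each (H2-K1 limma difference of −2.87 ± 0.24, adjusted p = 6.07e-05). Without KO DMSO replicate 1 the count of fallen members in KO was 2, since H2-K1 and H2-Q4 had limma adjusted p of 0.0563 and 0.0522, and without KO DMSO replicate 2 they had 0.0806 and 0.0693.

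Germline and other genes near silence in DMSO were detected after DAC. The deposited table lists 32 germline genes, of which 24 did not reach 1 FPKM in 2 libraries, and those that passed had to do so through a DAC group, so their number and median say nothing further. Rhox5 (ENSMUSG00000095180, chromosome X, 37754608 to 37808878), an X-linked homeobox gene of testis and placenta, was at 9.32, 12.6 and 13.8 FPKM in KO DAC, against 0 and 0.0855 FPKM in KO DMSO (limma log2 fold change 3.61 ± 0.19, adjusted p = 1.4e-06). Tuba3b, a testis tubulin, was at 4.77, 4.78 and 5.46 FPKM in KO DAC, against 0.123 and 0 FPKM in KO DMSO (limma log2 fold change 2.5 ± 0.13, adjusted p = 1.72e-06). Dazl, an RNA-binding protein of germ cells, was at 2.74, 2.5 and 2.27 FPKM in KO DAC, against 0.0247 and 0.0438 FPKM in KO DMSO (limma log2 fold change 1.76 ± 0.12, adjusted p = 5.16e-06). Tex19.1, which guards the germline against retroelements, was at 2.22, 2.84 and 2.32 FPKM in KO DAC, against 0 and 0.0344 FPKM in KO DMSO (limma log2 fold change 1.76 ± 0.12, adjusted p = 5.54e-06). Every KO DAC library lay above every KO DMSO library for these 4 genes, while the 2 groups did not overlap in 64.6% of all genes tested. These 4 genes passed the filter through DAC libraries, so neither this nor their p-values are further support for a rise. The other tested members averaged, in KO DAC and KO DMSO in that order, 2.09 and 0.13 FPKM for Taf7l, 1.8 and 0.14 FPKM for Slc25a31 and 0.944 and 0.0615 FPKM for Piwil2, while Rhox2a averaged 1.75 FPKM in KO DAC and was listed at 0 in both KO DMSO libraries. Dazl in WT DAC reached at most 0.47 FPKM. On the list of X-linked testis-expressed and Rhox genes 4 of 31 were tested, of which 2 rose and 1 fell. Both that rose passed the filter only through DAC libraries, so a rise was set for them by the filter. Tex13b, one of those that rose, was at 4.45, 4.87 and 4.24 FPKM in KO DAC, against 0 and 0.023 FPKM in KO DMSO (limma log2 fold change 2.45 ± 0.10, adjusted p = 3.86e-07). Nxf3, a relative of RNA export factors, fell, at 3.46, 3.5 and 3.14 FPKM in KO DAC, against 32 and 28 FPKM in KO DMSO (limma log2 fold change −2.83 ± 0.09, adjusted p = 1.06e-07). Apob (ENSMUSG00000020609, chromosome 12, 7977629 to 8016839), the main protein of lipoproteins and a gene of liver and gut, was at 53.3, 45 and 43.4 FPKM in KO DAC, against 0.958 and 0.876 FPKM in KO DMSO (limma log2 fold change 4.65 ± 0.10, adjusted p = 4.53e-08). In WT it was at 32.4, 31 and 28.4 FPKM in WT DAC, against 0.271 and 0.397 FPKM in WT DMSO, and the KO minus WT difference did not pass (limma difference of 0.08 ± 0.14, adjusted p = 0.731). Apob too passed the filter only through DAC libraries, so its p-value in KO is no further support for a rise. Other large rises were of Plac8, a placental and myeloid gene (11.6, 12.8 and 12.7 FPKM in KO DAC, against 0.274 and 0.445 FPKM in KO DMSO; limma log2 fold change 3.297 ± 0.13, adjusted p = 3.45e-07), and Cd80, a costimulator of T cells (14.3, 15.1 and 14.1 FPKM in KO DAC, against 0.727 and 1.1 FPKM in KO DMSO; limma log2 fold change 3.03 ± 0.10, adjusted p = 1.54e-07). Glipr1 (2.94) and Atg9b (2.83) were further members of the 15 largest rises. Plac8 and Atg9b also passed the filter only through DAC libraries, so their p-values are no further support for a rise. Ly6a, the surface protein Sca-1 and itself interferon-inducible, was at 325, 281 and 259 FPKM in KO DAC, against 40.6 and 37.3 FPKM in KO DMSO (limma log2 fold change 2.85 ± 0.15, adjusted p = 1.51e-06).

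Imprinted genes, whose single active copy is set by methylation, rose about as often as all genes and fell more often. Of 22 tested 5 rose and 11 fell (23.7% and 21.6% of all genes), with a median of −0.238. In WT 0 rose and 10 fell (14.5% and 13.8% of all genes). Cdkn1c, a cell-cycle inhibitor, was at 12.3, 10.3 and 9.18 FPKM in KO DAC, against 2.67 and 3.04 FPKM in KO DMSO (limma log2 fold change 1.58 ± 0.19, adjusted p = 0.000204). Ndn was at 6.82, 6.01 and 7.9 FPKM in KO DAC, against 3.17 and 1.83 FPKM in KO DMSO (limma log2 fold change 1.195 ± 0.18, adjusted p = 0.000818). H19, a long RNA, was at 64.1, 73.3 and 87.9 FPKM in KO DAC, against 333 and 323 FPKM in KO DMSO (limma log2 fold change −2.12 ± 0.18, adjusted p = 2.54e-05). Mest, an enzyme of early mesoderm, was at 4.47, 4.88 and 4.95 FPKM in KO DAC, against 30.2 and 28.4 FPKM in KO DMSO, and fell too (limma log2 fold change −2.39 ± 0.16, adjusted p = 5.69e-06). Neither pair of groups overlapped. Peg3 (−1.85) and Nnat (−1.95) fell as well, and Igf2, which shares its control region with H19, fell by less (−0.81). Among 16 genes of DNA methylation 3 rose and 6 fell. Dnmt1, the maintenance enzyme that DAC traps, was at 50.4, 61.1 and 60.9 FPKM in KO DAC, against 48.8 and 52.9 FPKM in KO DMSO and did not pass (limma log2 fold change 0.17 ± 0.11, adjusted p = 0.259). Its partner Uhrf1 rose (0.55), while the de novo enzyme Dnmt3a (−0.87) and the demethylases Tet1 (−0.83), Tet2 (−0.68) and Tet3 (−1.01) fell. After centring on chromosomes 5 genes of this list rose. Writers and readers of H3K9 methylation counted 4 rises, led by Suv39h1 (0.88), and 4 falls of 16, shares near those of all genes. Only 2 rose without KO DAC replicate 2 or without KO DMSO replicate 1, and 2 fell without the last or after centring on chromosomes.

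Targets of p53 rose in both of their branches. Of 27 genes of arrest and feedback 18 rose and 4 fell (median 0.653). Of 16 genes of cell death 14 rose and 2 fell (median 1.04). Cdkn1a (ENSMUSG00000023067, chromosome 17, 29090979 to 29100722), the p21 inhibitor of cyclin-dependent kinases, was at 64.9, 75.3 and 71.3 FPKM in KO DAC, against 9.76 and 9.39 FPKM in KO DMSO (limma log2 fold change 2.75 ± 0.13, adjusted p = 7.97e-07). Ccng1, a cyclin induced by p53, was at 141, 115 and 105 FPKM in KO DAC, against 25.6 and 25.2 FPKM in KO DMSO (limma log2 fold change 2.19 ± 0.12, adjusted p = 1.51e-06), and Mdm2, the ligase that degrades p53, rose (1.76). The membrane protein Perp, which acts in apoptosis, was at 14.8, 18 and 15.9 FPKM in KO DAC, against 2.54 and 2.29 FPKM in KO DMSO (limma log2 fold change 2.33 ± 0.11, adjusted p = 9.52e-07). Bax (1.43), Bbc3 (1.04) and Fas (1.05), which drive cell death, rose by less and were named after their values were seen, as was Mdm2. Btg2 fell, at 22.3, 26.2 and 27.4 FPKM in KO DAC, against 65.9 and 59.5 FPKM in KO DMSO (limma log2 fold change −1.28 ± 0.11, adjusted p = 2.68e-05), as did Gadd45a (−0.89), Ddb2 (−1.01), Sesn1 (−0.63) and the death gene Bcl2l11 (−1.19). Without KO DAC replicate 2 or either KO DMSO library 1 death gene fell. The KO DMSO level of Cdkn1a was the lowest of the 4 groups. WT libraries averaged 101 ± 16 FPKM in WT DAC, against 44.8 ± 4.07 FPKM in WT DMSO (SD, n = 3 and 2), and the difference between the responses passed (limma difference of 1.61 ± 0.18, adjusted p = 0.000331).

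Genes of mitosis rose beside these inhibitors. Of 30 G2/M genes 25 rose and 1 fell, by small amounts (median 0.47). Plk1, a mitotic kinase, was at 41.1, 48.3 and 46.4 FPKM in KO DAC, against 21.9 and 20.3 FPKM in KO DMSO (limma log2 fold change 1.06 ± 0.08, adjusted p = 1.35e-05). Aurka, another, was at 26.4, 33.9 and 31.4 FPKM in KO DAC, against 15 and 16.7 FPKM in KO DMSO (limma log2 fold change 0.901 ± 0.13, adjusted p = 0.000597). Without KO DMSO replicate 1 the count of risen G2/M genes was 19, and the count of fallen ones was 0 with any one KO library left out. Of 32 S-phase genes 4 rose and 4 fell, and the ribonucleotide reductase Rrm2 was the largest rise, at 1.49 ± 0.06 (limma adjusted p = 5.68e-07). The S-phase falls numbered 1 or 2 without KO DAC replicate 1 or 3 or either KO DMSO library, and 8 of the genes rose after median centring. Ccnd1, the cyclin that opens the cycle, was at 46.8, 53.7 and 50.4 FPKM in KO DAC, against 7.97 and 8.03 FPKM in KO DMSO (limma log2 fold change 2.51 ± 0.12, adjusted p = 1.01e-06). Ccne1, the next cyclin, was at 16, 18.3 and 17.8 FPKM in KO DAC, against 4.71 and 5.24 FPKM in KO DMSO (limma log2 fold change 1.62 ± 0.08, adjusted p = 8.95e-07). Cdkn1b, the p27 inhibitor, was at 15.7, 14.5 and 15.6 FPKM in KO DAC, against 26.7 and 28.1 FPKM in KO DMSO and fell (limma log2 fold change −0.81 ± 0.06, adjusted p = 7.59e-06). Replication-dependent histones, most of them on chromosomes 13 and 3, rose in 22 of 59 cases and fell in 1, but in only 3 cases after each library was centred on the median of each chromosome. Leaving out KO DAC replicate 2 or 3 gave 12 risen histones, KO DMSO replicate 1 gave 8 and KO DMSO replicate 2 gave 11.

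**Figure D2:**
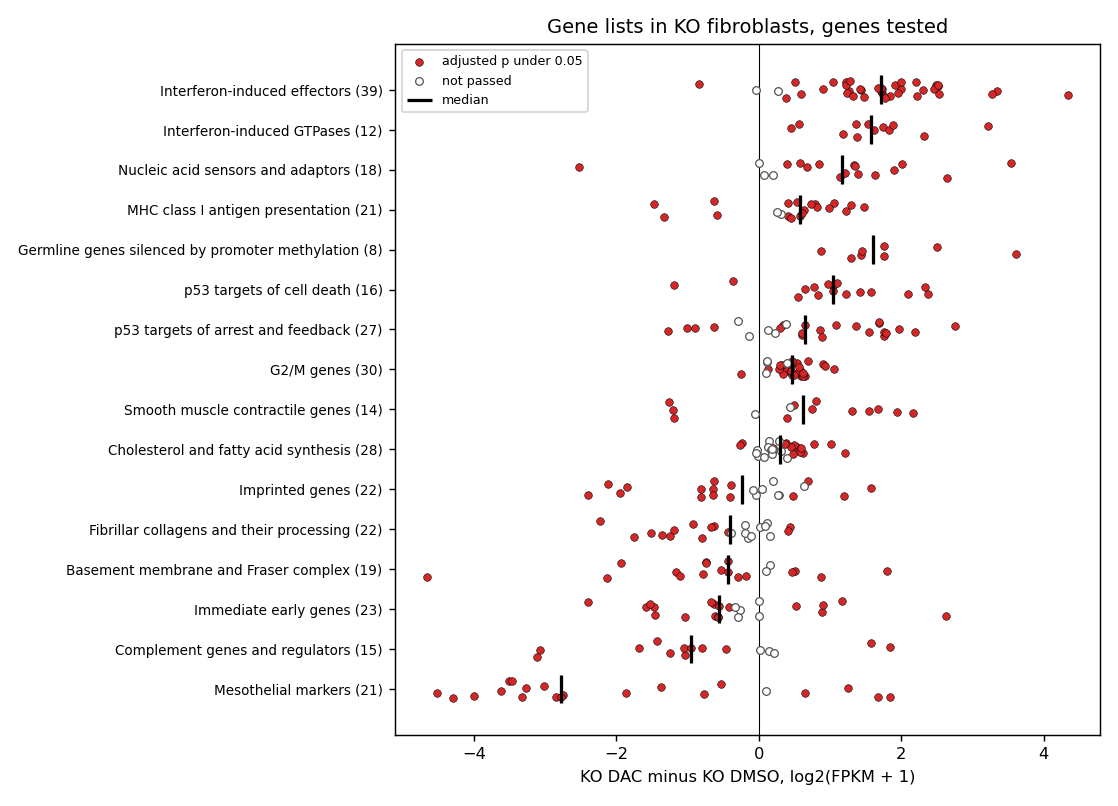
Log2 fold change of KO DAC over KO DMSO for the tested members of 16 gene lists (points; number of members in brackets), filled where the limma adjusted p was under 0.05, with the list median as a bar. On this log2(FPKM + 1) scale the medians of interferon-induced effectors (1.72) and of mesothelial markers (−2.78) are the highest and the lowest of the 16, and lists of matrix and complement genes have members on both sides of 0.

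Most markers of mesothelium fell, and several were among the 15 largest falls. Of 21 tested markers 16 fell, 14 of them by at least 2-fold, and 4 rose (median −2.78). Members of this list were chosen with earlier results of these data known. The count, the median and the place of members among the largest falls are thus in part set by that choice. Rspo1, a secreted enhancer of Wnt signals, was at 1.58, 1.87 and 2.03 FPKM in KO DAC, against 63.4 and 63.7 FPKM in KO DMSO (limma log2 fold change −4.52 ± 0.14, adjusted p = 1.03e-07). Lrrn4, a membrane protein of mesothelium, was at 1.61, 2.34 and 2.09 FPKM in KO DAC, against 55 and 61.5 FPKM in KO DMSO (limma log2 fold change −4.302 ± 0.13, adjusted p = 1.03e-07). The membrane glycoprotein Gpm6a was at 7.96, 7.3 and 6.94 FPKM in KO DAC, against 105 and 99.8 FPKM in KO DMSO (limma log2 fold change −3.62 ± 0.12, adjusted p = 1.47e-07). The 2 groups lay far apart for all 3. Podxl, an anti-adhesive sialomucin, was at 24.1, 24.9 and 25.9 FPKM in KO DAC, against 290.1 and 284 FPKM in KO DMSO (limma log2 fold change −3.47 ± 0.15, adjusted p = 5.38e-07). Upk3b, a uroplakin made by mesothelium, was at 29.6, 33.9 and 35.1 FPKM in KO DAC, against 372 and 396 FPKM in KO DMSO (limma log2 fold change −3.51 ± 0.40, adjusted p = 0.000156). The transcription factor Wt1, which defines mesothelium and the gonadal ridge, was at 4.77, 5.86 and 5.8 FPKM in KO DAC, against 60.2 and 62.7 FPKM in KO DMSO (limma log2 fold change −3.27 ± 0.11, adjusted p = 1.61e-07). Msln itself, the gene of mesothelin, did not pass, at 21.1, 25 and 23.6 FPKM in KO DAC, against 19.95 and 23.2 FPKM in KO DMSO (limma log2 fold change 0.11 ± 0.16, adjusted p = 0.639). The keratins that mark simple epithelia divided: Krt8 (1.67) and Krt19 (1.84) rose, and Krt7 (−2.76) and Krt18 (−0.77) fell, the last with limma adjusted p of 0.0501 and 0.0762 without KO DMSO replicate 1 and 2. Cav1 (1.25) and Efemp1 (0.66) were the other 2 that rose.

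The separate siRNA table gives levels in KO cells without DAC, in another unit, and the first 4 genes given next were chosen as falls. With NT siRNA (n = 3) Rspo1 was at 1.995 ± 0.488 RPKM, Lrrn4 at 10.3 ± 0.539 RPKM, Gpm6a at 10.1 ± 0.933 RPKM and Podxl at 22.5 ± 2.5 RPKM, each below the KO DMSO values in FPKM. Krt18 stood at 31.7 ± 3.17 RPKM and Aldh1a1 at 23.2 ± 0.613 RPKM there, at or above the KO DMSO values of both genes in FPKM. Aldh1a1, an enzyme of retinoic acid synthesis, was at 5.5, 6.78 and 6.84 FPKM in KO DAC, against 22.9 and 20.5 FPKM in KO DMSO (limma log2 fold change −1.62 ± 0.18, adjusted p = 0.000136). Of genes that rose, Oas3 was at 0.177 ± 0.0572 RPKM, Apob at 0.0273 ± 0.00723 RPKM, Zbp1 at 0.35 ± 0.107 RPKM and Xist at 0.000479 ± 0.000829 RPKM, at or below their KO DMSO values. Other genes that rose stood above their KO DMSO values in FPKM. Among them Cdkn1a was at 28.44 ± 1.113 RPKM, Ccng1 at 56.05 ± 8.967 RPKM and Perp at 12.05 ± 1.27 RPKM. Cdkn1c was at 13.35 ± 0.9038 RPKM and Aqp1 at 60.64 ± 2.223 RPKM. All of these risen genes were picked after their values were seen. The tables were normalised separately, so these levels were not tested against each other. In WT DMSO Rspo1, Lrrn4, Gpm6a and Podxl were at 0.641, 0, 0 and 1.74 FPKM. With NT siRNA in WT they averaged 0.187, 0.0187, 0.00226 and 0.162 RPKM, so Rspo1 and Podxl were lower there in WT too. Of the 913 genes that fell by at least 2-fold in KO, 429 (47.0%) averaged under 1 FPKM in WT DMSO, against 12.4% of all genes tested. Among genes that rose by at least 2-fold in KO, 130 (22.3%) did so. In KO DMSO 0 of the 913 averaged under 1 FPKM, and genes low in WT could pass the filter through KO DMSO. The 47.0% is thus in part set by the filter and the choice. The median log2 fold change of the 913 genes was −1.45 in KO and −0.052 in WT, as genes chosen by the KO value. Of the 583 genes that rose by at least 2-fold in KO, 73.1% rose in WT and 2.57% fell.

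Other genes among the 15 largest falls were not on the mesothelial list. Fras1 (ENSMUSG00000034687, chromosome 5, 96373777 to 96784733), a protein of the basement membrane of embryonic epithelia, was at 0.891, 1.01 and 1.12 FPKM in KO DAC, against 48.7 and 50.4 FPKM in KO DMSO (limma log2 fold change −4.65 ± 0.09, adjusted p = 2.76e-08). Plxna4, a receptor for semaphorins, was at 1.22, 1.3 and 1.53 FPKM in KO DAC, against 49.2 and 49.8 FPKM in KO DMSO (limma log2 fold change −4.43 ± 0.10, adjusted p = 4.53e-08). Igfbp3, a binding protein for insulin-like growth factors, was at 1.86, 1.98 and 2.54 FPKM in KO DAC, against 68.2 and 66.5 FPKM in KO DMSO (limma log2 fold change −4.46 ± 0.09, adjusted p = 4.53e-08). For these the DMSO libraries stood at 48.7 FPKM or more and no DAC library above 2.54 FPKM. Amhr2, the receptor for anti-Müllerian hormone, was at 4.06, 5.43 and 3.52 FPKM in KO DAC, against 84.3 and 84 FPKM in KO DMSO (limma log2 fold change −4.01 ± 0.15, adjusted p = 2.52e-07). Ptgds, a prostaglandin synthase, was at 0.395, 0.349 and 0.329 FPKM in KO DAC, against 18 and 19 FPKM in KO DMSO (limma log2 fold change −3.84 ± 0.09, adjusted p = 5.75e-08). Lgals2 (−3.99), Pcp4l1 (−3.69), C1qtnf7 (−3.57), Smtnl2 (−3.54) and Wipf3 (−3.52) fell as well. Ptgds, C1qtnf7 and Wipf3 were under 1 FPKM in every library outside KO DMSO and passed the filter only through KO DMSO. Neither their p-values nor their KO minus WT differences are thus further support for a fall. With NT siRNA Fras1 was at 1.12 ± 0.157 RPKM, Plxna4 at 0.868 ± 0.0882 RPKM and Igfbp3 at 5.46 ± 0.454 RPKM in KO. In WT with NT siRNA they averaged 0.0335, 0.00683 and 0.335 RPKM in that order. In WT DMSO Fras1 was at 0.963 and 1.01 FPKM, Plxna4 at 0.0506 and 0.0345 FPKM and Igfbp3 at 7.22 and 6.84 FPKM. Values in RPKM were thus below those in FPKM in both genotypes, so this gap is not particular to KO.

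**Figure D3:**
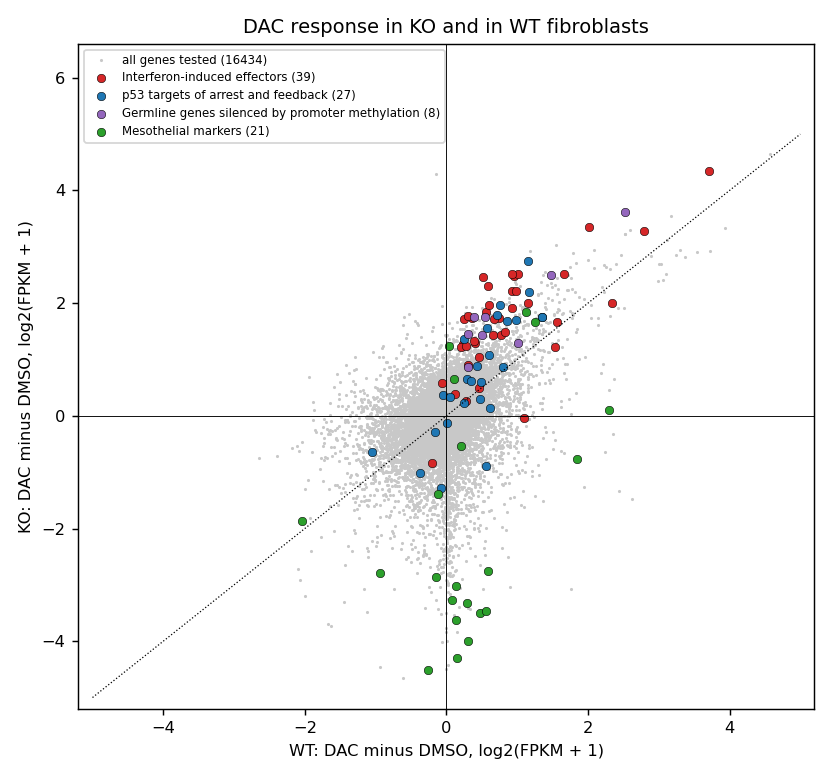
Log2 fold change with DAC in KO (vertical axis) and in WT (horizontal axis) for the 16434 genes tested (grey), with 4 gene lists in colour and equal responses on the dotted line. Interferon-induced effectors and p53 targets lie mostly above the line in the upper right, germline genes, which passed the filter on low values through DAC libraries, lie above 0 in KO, and most mesothelial markers lie near 0 in WT and below −2 in KO.

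Transcription factors that mark positions in the embryo changed by cluster. All 5 tested HoxB genes and all 5 HoxC genes fell, and 6 of 8 HoxA genes and 5 of 6 HoxD genes rose, with no member of these clusters moving the other way. Median log2 fold changes were 0.771 for HoxA, −1.18 for HoxB, −1.26 for HoxC and 0.548 for HoxD. Hoxb9 was at 2.97, 2.92 and 2.81 FPKM in KO DAC, against 11.3 and 10.8 FPKM in KO DMSO (limma log2 fold change −1.62 ± 0.07, adjusted p = 5.95e-07). Hoxc9 was at 0.402, 0.527 and 0.424 FPKM in KO DAC, against 3.35 and 3.16 FPKM in KO DMSO (limma log2 fold change −1.55 ± 0.09, adjusted p = 3.13e-06). Hoxa7 was at 4.3, 3.62 and 3.23 FPKM in KO DAC, against 0.677 and 0.976 FPKM in KO DMSO (limma log2 fold change 1.37 ± 0.12, adjusted p = 3.29e-05). Hoxd9 was at 1.83, 3.03 and 3.02 FPKM in KO DAC, against 0.647 and 0.739 FPKM in KO DMSO (limma log2 fold change 1.08 ± 0.25, adjusted p = 0.00732). Most of these levels were low. Genes of 1 cluster lie side by side and share control regions, so they are not separate observations. In WT the medians were −0.113 for HoxA, 0.014 for HoxB, 0 for HoxC and −0.643 for HoxD. With a filter at 5 FPKM only 1 fallen and 7 risen Hox genes remained called. Mesothelial markers fell in the same libraries, and their part in this split was not tested.

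**Figure D4:**
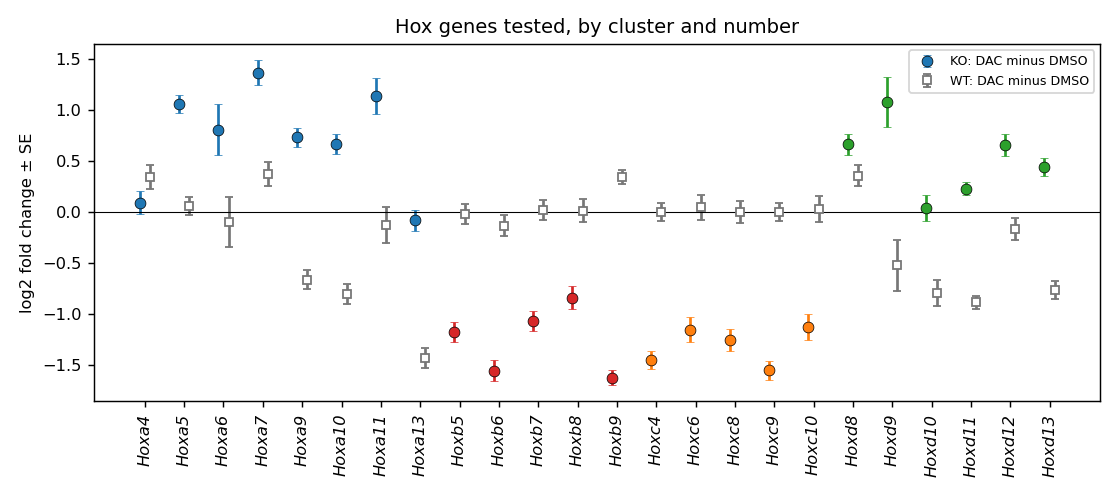
Log2 fold change ± standard error with DAC of the 24 tested Hox genes, ordered by cluster and number, in KO (filled circles, coloured by cluster) and WT (open squares). All HoxB and HoxC points of KO lie below −0.8, and those of HoxA and HoxD lie from −0.08 upwards.

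The wider list of limb and body-wall factors held 18 rises and 11 falls of 39 (median 0.208), with 7 falls without KO DMSO replicate 1. Gata6 was at 9.2, 9.82 and 9.92 FPKM in KO DAC, against 70.4 and 74.1 FPKM in KO DMSO (limma log2 fold change −2.78 ± 0.08, adjusted p = 1.03e-07). Gata4 was at 5.88, 6.45 and 5.29 FPKM in KO DAC, against 49.6 and 47.6 FPKM in KO DMSO (limma log2 fold change −2.85 ± 0.08, adjusted p = 1.01e-07). Both are factors of heart, gut and body-cavity mesoderm. Osr1, a factor of intermediate mesoderm and limb, was at 26.8, 27.2 and 23.4 FPKM in KO DAC, against 10.5 and 10.6 FPKM in KO DMSO (limma log2 fold change 1.21 ± 0.08, adjusted p = 7.44e-06). Gata3 was at 23.7, 26.1 and 24.8 FPKM in KO DAC, against 8.64 and 9.6 FPKM in KO DMSO (limma log2 fold change 1.35 ± 0.06, adjusted p = 8.95e-07). Gata4 and Gata6 are also on the mesothelial list. Retinoic acid genes counted 6 rises and 6 falls of 16, and 3 rises without KO DMSO replicate 1. The synthetic enzyme Aldh1a2, again a mesothelial marker, was at 1.44, 1.19 and 1.53 FPKM in KO DAC, against 37.9 and 36.4 FPKM in KO DMSO (limma log2 fold change −4.003 ± 0.11, adjusted p = 7.5e-08), while the binding protein Crabp2 was at 78.9, 81.7 and 83.9 FPKM in KO DAC, against 26.3 and 27.5 FPKM in KO DMSO (limma log2 fold change 1.56 ± 0.07, adjusted p = 8.95e-07).

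Genes of the extracellular matrix fell more often than they rose. Of 22 genes of fibrillar collagens and their processing 2 rose and 11 fell (median −0.407), and 0 or 1 rose without KO DAC replicate 2 or 3 or either KO DMSO library. Col3a1 was at 19.2, 24.1 and 26.3 FPKM in KO DAC, against 111 and 112 FPKM in KO DMSO (limma log2 fold change −2.23 ± 0.13, adjusted p = 2.5e-06). Col1a1, the main collagen of fibroblasts, was at 346, 416 and 429 FPKM in KO DAC, against 739 and 766 FPKM in KO DMSO (limma log2 fold change −0.93 ± 0.10, adjusted p = 0.000109). Lox, which crosslinks collagen and elastin, was at 65.5, 67.4 and 64.7 FPKM in KO DAC, against 169.8 and 170.4 FPKM in KO DMSO (limma log2 fold change −1.36 ± 0.05, adjusted p = 3.36e-07). Col1a1 and Lox fell in WT too, with log2 fold changes of −1.15 and −1.43. Eln, the gene of elastin, was at 0.416, 0.458 and 0.86 FPKM in KO DAC, against 19.8 and 19.8 FPKM in KO DMSO (limma log2 fold change −3.73 ± 0.14, adjusted p = 2.54e-07), and the elastic fibre list as a whole had 6 rises and 8 falls of 17. Basement membrane genes fell in 13 of 19 cases and rose in 4 (median −0.438), Nid2 being at 11.7, 12.7 and 11.9 FPKM in KO DAC, against 48 and 50.3 FPKM in KO DMSO (limma log2 fold change −1.94 ± 0.06, adjusted p = 1.03e-07). Npnt, a ligand of integrins, was at 14.1, 14.6 and 14.5 FPKM in KO DAC, against 3.44 and 3.4 FPKM in KO DMSO (limma log2 fold change 1.805 ± 0.05, adjusted p = 1.03e-07). Of small leucine-rich and matricellular proteins 5 rose and 11 fell of 22, with Dcn, the decorin gene, at 25, 26.9 and 27.1 FPKM in KO DAC, against 161 and 156 FPKM in KO DMSO (limma log2 fold change −2.54 ± 0.13, adjusted p = 1.4e-06). Thbs1 rose (1.1). Of these proteins 3 rose without KO DAC replicate 2 or 3, and 2 without KO DMSO replicate 2 or with the replicate block. Dcn is a fibroblast marker that was at 10.3 FPKM in WT DMSO and 22 ± 5.71 RPKM in KO with NT siRNA.

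Genes of the contractile apparatus rose. Of 14 smooth muscle genes 9 rose and 3 fell (median 0.625). Acta2, smooth muscle actin and a myofibroblast marker, was at 132, 162 and 152 FPKM in KO DAC, against 37.3 and 38.8 FPKM in KO DMSO (limma log2 fold change 1.94 ± 0.17, adjusted p = 3.24e-05). Myl9, a myosin light chain, was at 79.4, 86.3 and 88.7 FPKM in KO DAC, against 24.6 and 27.4 FPKM in KO DMSO (limma log2 fold change 1.67 ± 0.09, adjusted p = 1.5e-06). Actg2 was at 5.75, 7.05 and 8.07 FPKM in KO DAC, against 0.559 and 0.99 FPKM in KO DMSO (limma log2 fold change 2.16 ± 0.22, adjusted p = 6.46e-05). The muscle filament gene Des (−1.27), Smtn (−1.21) and the kinase Mylk (−1.19) fell. In WT Acta2 was at 239 ± 47.1 FPKM in WT DAC, against 195 ± 31.3 FPKM in WT DMSO, and the KO minus WT difference passed (limma difference of 1.66 ± 0.24, adjusted p = 0.00144). Ankrd1, a mechanosensitive muscle gene, was among the 15 largest rises (19, 22.6 and 18 FPKM in KO DAC, against 1.81 and 1.62 FPKM in KO DMSO; limma log2 fold change 2.94 ± 0.15, adjusted p = 1.12e-06). The fibroblast surface marker Thy1 was at 169, 184 and 191 FPKM in KO DAC, against 43.7 and 46.9 FPKM in KO DMSO (limma log2 fold change 1.98 ± 0.08, adjusted p = 4.28e-07). Vim, the filament of mesenchymal cells, was at 459, 525 and 501 FPKM in KO DAC, against 236 and 240.2 FPKM in KO DMSO (limma log2 fold change 1.05 ± 0.10, adjusted p = 3.66e-05). Of 15 tested fibroblast markers 6 rose and 7 fell, and without KO DMSO replicate 1 only 3 rose.

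Secreted signals moved both ways. Complement genes fell in 10 of 15 cases and rose in 2 (median −0.949). C3, the central component, was at 7.59, 8.77 and 10.4 FPKM in KO DAC, against 79.4 and 83.8 FPKM in KO DMSO (limma log2 fold change −3.07 ± 0.11, adjusted p = 1.61e-07). Cd55, which shields cells from complement, was at 12.8, 10.5 and 9.33 FPKM in KO DAC, against 105 and 97.5 FPKM in KO DMSO (limma log2 fold change −3.12 ± 0.19, adjusted p = 3.14e-06). In WT C3 rose, at 11.7 ± 0.588 FPKM in WT DAC, against 2.77 ± 0.0148 FPKM in WT DMSO (limma log2 fold change 1.76 ± 0.11, adjusted p = 1.46e-05), and the difference between the responses was among the largest (limma difference of −4.83 ± 0.15, adjusted p = 7.81e-07). Mesothelial markers fell beside the complement genes in KO, and their part was not tested. Among 13 chemokines 4 rose and 6 fell, and 3 fell without KO DMSO replicate 1. Ccl5 was at 24.9, 27.2 and 25.5 FPKM in KO DAC, against 3.71 and 2.68 FPKM in KO DMSO (limma log2 fold change 2.69 ± 0.14, adjusted p = 1.34e-06). Cxcl10, an interferon-induced attractant of T cells, was at 49.3, 68.2 and 67.6 FPKM in KO DAC, against 13.9 and 15.9 FPKM in KO DMSO (limma log2 fold change 1.96 ± 0.20, adjusted p = 8.54e-05). Cxcl12, which retains stem cells, was at 35.9, 39.9 and 42.4 FPKM in KO DAC, against 66.9 and 67.2 FPKM in KO DMSO and fell (limma log2 fold change −0.75 ± 0.08, adjusted p = 0.000112). Of 19 secreted inflammatory factors 11 rose and 4 fell. Ptgs2, the inducible cyclooxygenase, was at 33.2, 32.2 and 26.9 FPKM in KO DAC, against 9.59 and 7.42 FPKM in KO DMSO (limma log2 fold change 1.74 ± 0.12, adjusted p = 5.42e-06), while the acute-phase gene Saa3 was at 0, 0.362 and 0.408 FPKM in KO DAC, against 10.9 and 14.1 FPKM in KO DMSO (limma log2 fold change −3.43 ± 0.18, adjusted p = 1.26e-06).

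Growth factor genes also moved both ways. Secreted Wnt regulators and ligands fell in 11 of 18 cases and rose in 3, with Wnt5a at 3.96, 4.46 and 4.53 FPKM in KO DAC, against 14 and 14.7 FPKM in KO DMSO (limma log2 fold change −1.53 ± 0.09, adjusted p = 2.72e-06). Without KO DMSO replicate 1 their falls numbered 6. TGF-beta and BMP genes counted 11 rises and 15 falls of 30: the BMP antagonist Grem1 was at 51.3, 50.8 and 48.6 FPKM in KO DAC, against 15 and 15.7 FPKM in KO DMSO (limma log2 fold change 1.65 ± 0.05, adjusted p = 1.23e-07). The ligand Bmp4 was at 4.86, 5.54 and 5.31 FPKM in KO DAC, against 29.8 and 28.9 FPKM in KO DMSO (limma log2 fold change −2.28 ± 0.06, adjusted p = 8.42e-08). IGF genes counted 6 rises and 7 falls of 14. Plexins, neuropilins and semaphorins counted 6 rises and 9 falls of 20, with 3 rises without KO DMSO replicate 2. Immediate early genes, the first to answer a stimulus, fell in 13 of 23 cases and rose in 5 (median −0.555). Fos was at 19.3, 27.5 and 25.1 FPKM in KO DAC, against 139 and 121 FPKM in KO DMSO (limma log2 fold change −2.403 ± 0.20, adjusted p = 2.45e-05). Egr1 was at 152, 160.3 and 159 FPKM in KO DAC, against 459 and 414 FPKM in KO DMSO (limma log2 fold change −1.47 ± 0.09, adjusted p = 3.75e-06). Within the same AP-1 family Fosl1 rose, at 79.8, 81.2 and 80.1 FPKM in KO DAC, against 11.7 and 12.6 FPKM in KO DMSO (limma log2 fold change 2.63 ± 0.09, adjusted p = 1.93e-07), as did Myc (1.18).

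Metabolic and stress genes changed by less. Of 28 genes of cholesterol and fatty acid synthesis 13 rose and 2 fell (median 0.297), and 0 fell without KO DMSO replicate 2 and 1 without KO DMSO replicate 1 or KO DAC replicate 2 or 3. In WT 2 of these genes rose and 8 fell, and the KO response was above the WT response in 17 and below it in 0 by the test of the difference. Glycolysis and hypoxia genes counted 8 rises and 5 falls of 26 in KO, against 18 rises and 0 falls in WT, and the difference passed downward in 10. In KO 5 of them rose without KO DMSO replicate 1, and 9 fell by limma-voom. Ldha, which makes lactate, was at 75, 92 and 92.5 FPKM in KO DAC, against 45.2 and 52 FPKM in KO DMSO (limma log2 fold change 0.82 ± 0.14, adjusted p = 0.00129). Unfolded protein and amino acid stress genes rose in 11 of 26 cases and fell in 3, led by the serine enzyme Psat1 at 0.96 ± 0.13 (limma adjusted p = 0.000321), with 5 falls in a fit of the 2 groups alone. NRF2 targets rose in 10 of 18 and fell in 3, the largest rise being of the sulfiredoxin Srxn1 at 1.34 ± 0.12 (limma adjusted p = 3.14e-05). The largest change on that list was a fall, of the glutathione transferase Gsta4, at 4.93, 4.95 and 4.73 FPKM in KO DAC, against 19.3 and 19.5 FPKM in KO DMSO (limma log2 fold change −1.796 ± 0.13, adjusted p = 1.03e-05), and Gstm1 fell as well (−1.17). Clustered protocadherins fell in 17 of 29 cases and rose in 1, against 29 falls in WT. With a filter at 5 FPKM 4 of them fell, and without KO DMSO replicate 1 0 rose. Polycomb genes counted 4 rises and 9 falls of 26, cytosolic ribosomal proteins 18 and 1 of 82, and mitochondrially encoded genes 0 and 5 of 15. After centring on chromosomes 8 Polycomb genes rose and 1 mitochondrial gene fell. That centring kept only the 14659 genes with a position, and only 2 tested genes had one on the mitochondrial genome. The mitochondrial counts before and after it are thus not comparable. The ribosomal share of rises is near the 23.7% of all genes, while the share of falls is far below the 21.6% of all genes. Without KO DAC replicate 2 only 10 ribosomal genes rose and 0 fell. The median log2 fold change of the ribosomal genes was 0.154, and it was 0.126 without KO DMSO replicate 1 and 0.191 without KO DMSO replicate 2. Of the mitochondrial genes 8 fell without KO DAC replicate 1, 1 with any other KO library left out, and 9 by limma-voom.

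Some genes answered DAC in opposite directions in KO and WT. Penk, the precursor of enkephalins, was at 9.72, 11.7 and 12.8 FPKM in KO DAC, against 7.52 and 5.84 FPKM in KO DMSO (limma log2 fold change 0.69 ± 0.16, adjusted p = 0.00851). In WT it was at 23.9, 25.8 and 28.5 FPKM in WT DAC, against 86.8 and 121 FPKM in WT DMSO (limma log2 fold change −1.94 ± 0.16, adjusted p = 7.57e-05), which gave a limma difference of 2.63 ± 0.23, adjusted p = 8.64e-05. Without KO DMSO replicate 2 the rise of Penk in KO did not pass (limma adjusted p = 0.0788). The water channel Aqp1 was at 54, 54.4 and 54.8 FPKM in KO DAC, against 15.4 and 15.6 FPKM in KO DMSO (limma log2 fold change 1.75 ± 0.06, adjusted p = 1.33e-07). It averaged 34 ± 1.67 FPKM in WT DAC, against 52.3 ± 3.27 FPKM in WT DMSO (limma difference of 2.35 ± 0.08, adjusted p = 9.42e-07). The proteoglycan Vcan was at 34, 32.6 and 32 FPKM in KO DAC, against 13.7 and 12.9 FPKM in KO DMSO (limma log2 fold change 1.24 ± 0.08, adjusted p = 3.57e-06). It averaged 41.8 ± 2.08 FPKM in WT DAC, against 78.6 ± 9.14 FPKM in WT DMSO (limma difference of 2.14 ± 0.11, adjusted p = 5.29e-06). Slc24a3 (0.76) and Rtn4r (1.62) also rose in KO and fell in WT, the WT log2 fold changes being −1.37 and −0.404. Osr1 and Npnt, described above, rose in KO and fell in WT as well (−0.904 and −0.53 in WT). In Penk, Aqp1, Vcan, Slc24a3 and Rtn4r the KO DMSO level was below the WT DMSO level.

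Fold changes in KO also followed chromosomes. Medians were 0.265 on chromosome 13, 0.251 on chromosome 10, 0.21 on chromosome 3, 0.178 on chromosome 7 and 0.17 on chromosome 12, and between −0.096 and 0.102 on the 15 others counted, X included. The SD of the 20 medians was 0.117 in KO and 0.0344 in WT. On chromosome 13 240 of 553 genes rose (43.4%) and 55 fell (9.95%), while on chromosome 14 89 of 488 rose (18.2%) and 128 fell (26.2%). The KO DMSO minus WT DMSO medians of chromosomes 10, 13, 12, 3 and 7 were −0.443, −0.354, −0.245, −0.244 and −0.164, and the KO DAC minus WT DAC medians were −0.119, −0.107, −0.026, −0.059 and 0.001. After centring on chromosomes 3850 genes rose and 3026 fell. Why chromosomes differed was not tested.

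**Figure D5:**
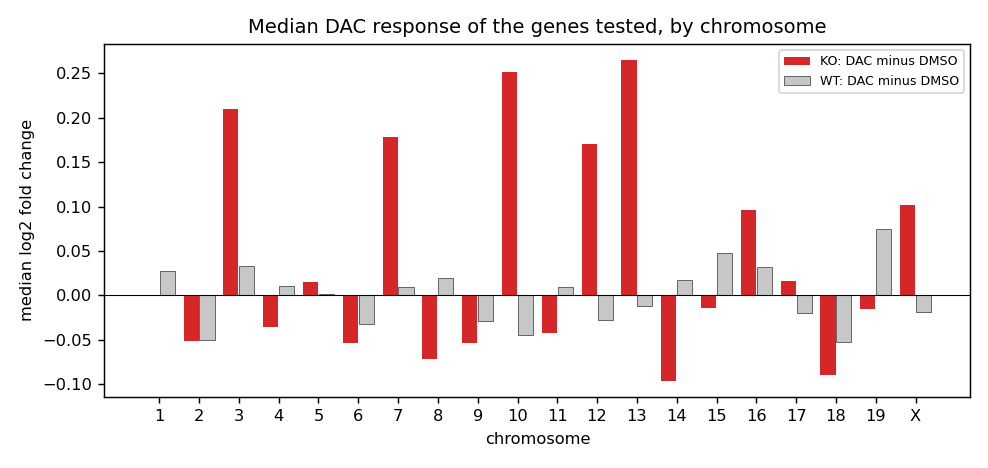
Median log2 fold change with DAC of the tested genes on each autosome and on X, in KO (red bars) and in WT (grey bars), with Y and the mitochondrial genome left out. KO bars stand at 0.17 or more on chromosomes 3, 7, 10, 12 and 13, while every WT bar lies between −0.052 and 0.075.

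Xist (ENSMUSG00000086503, chromosome X, 103460373 to 103483233), a long RNA that silences one X chromosome of female cells in cis, was at 44.4, 28.9 and 28.5 FPKM in KO DAC, against 0.923 and 0.579 FPKM in KO DMSO (limma log2 fold change 4.29 ± 0.23, adjusted p = 1.84e-06). In WT it was at 136, 139.6 and 210.1 FPKM in WT DAC, against 169.7 and 181 FPKM in WT DMSO. The DAC libraries of KO lay far above its DMSO libraries and below all WT libraries. X-linked genes had a median log2 fold change of 0.102 in KO. The Y-linked genes rose in the same libraries: Eif2s3y was at 7.98, 6.64 and 6.5 FPKM in KO DAC, against 3.37 and 3.11 FPKM in KO DMSO (limma log2 fold change 0.92 ± 0.10, adjusted p = 0.000109). Ddx3y was at 5.26, 5.37 and 5.43 FPKM in KO DAC, against 3.13 and 3.02 FPKM in KO DMSO (limma log2 fold change 0.64 ± 0.08, adjusted p = 0.000244). Uty was at 5.19, 3.85 and 4.05 FPKM in KO DAC, against 2.81 and 2.42 FPKM in KO DMSO (limma log2 fold change 0.56 ± 0.12, adjusted p = 0.00487). With a pseudocount of 0.1 Ddx3y and Uty did not pass (limma adjusted p = 0.0506 and 0.0582), and after centring on chromosomes neither did (Uty log2 fold change −0.0789). Of the 9 tested genes on Y 7 rose, with a median of 0.562. That centring takes out a change the Y genes share, so it cannot test their rise. The library kit marks strand, but the strand setting of the authors' counting is not given in the sources used here, so reads of Xist and of its antisense gene cannot be told apart.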

How the data were processed

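The authors deposited FPKM values per Ensembl gene for 10 libraries of the DAC experiment, and RPKM values for 12 siRNA libraries, both as deposited with no other scaling stated. RNA libraries were made with a TruSeq Stranded Total RNA kit and sequenced paired-end, per the labels' protocols. The submitters' processing notes name STAR, Bowtie2, deepTools and the mm10 build, while for the counter and its strand setting nothing is given in the labels. Each FPKM value of the 30078 genes above 0 was a whole number of reads within 0.01 once the library total was solved for, which gave 27503472 to 36910532 reads per library. Of 43432 gene IDs 42462 (97.8%) had a symbol, and for 20 symbols listed more than once the entry with the highest mean was used.

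Genes with at least 1 FPKM in 2 libraries were tested with limma 3.58.1 in R 4.3.3 (moderated test with a mean trend, 2-sided) on log2(FPKM + 1), with 1 mean for each of the 4 groups of the DAC table and Benjamini-Hochberg adjustment per comparison. The fit was tested on simulated data. Alternatives were a pseudocount of 0.1, other filters, centring of libraries or chromosomes, a replicate block, the 2 groups alone, each library left out, and limma-voom on the recovered reads, which was added after seeing the data. KO DAC and KO DMSO share replicate numbers 1 and 2, and the deviations of same-numbered libraries from their group means correlated at 0.085 and 0.061 across genes, so with 2 pairs the numbers were not taken as pairs.

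Named genes were Anp32e, H2afz, H2afv and Dnmt1, up to 15 called genes with the largest change each way at a mean of 5 FPKM or more and no overlap of libraries, up to 4 called members each way of each gene list, and up to 8 genes each way with the largest difference between KO and WT. Members and lists were chosen with earlier results of these data known. Genes named outside the rule, chosen after their values were seen, were Adar, Bax, Bbc3, Bst2, Cgas, Ddx58, Fas, Ifih1, Ifit1, Igf2, Irf9, Irgm1, Isg15, Mdm2, Mavs, Msln, Oas1c, Piwil2, Rhox2a, Slc25a31, Sp100, Taf7l, Tmem173, Upk3b and Wt1. Gene positions and promoter windows came from RefSeq tables of GRCm38.p6, with positions for 14659 of the genes tested (89.2%). The CUT&Tag files of the series were not used here, and some genes are not reported here.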

Additional observations from a re-analysis of the deposited data

Results flagged for a closer look

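For 131 of the 175 genes described, the DAC effect in KO minus that in WT passed the limma test of the difference over all 16434 genes, upward for 67 and downward for 64. Over all genes tested it passed for 24.1%, upward for 12.4% and downward for 11.7%. The genes described were chosen for large changes in KO and in part for the largest KO minus WT differences, so this count is largely set by the choice and is no support for a difference. The germline genes, Tex13b, Oas3 and Plac8 passed the filter on low values through DAC libraries, so a rise was set for them by the filter. Ptgds, C1qtnf7 and Wipf3 passed it only through the KO DMSO libraries, so a fall in KO and a negative difference were set for them. Each value below is that difference on the scale of log2(FPKM + 1), and none is a bound where a group was listed at 0. KO and WT also differ in sex and origin, and the part of the KO DMSO libraries, which stood apart, was not tested.

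Among the genes that rose in KO by more than in WT, or against a fall in WT, the difference passed for 64, led by Xist (4.44), Penk (2.63), Aqp1 (2.35), Npnt (2.33), Vcan (2.14), Slc24a3 (2.13), Osr1 (2.11), Rtn4r (2.02) and Cdkn1c (1.77). The next differences were for Pparg (1.76), Isg15 (1.72), Acta2 (1.66), Cdkn1a (1.61), Hoxd9 (1.603), Myl9 (1.52), Trim30a (1.51), Cd80 (1.48) and Usp18 (1.46). Further values were for Vim (1.38), Bst2 (1.36), Dazl (1.36), Oas2 (1.33), Ifit1 (1.29), Ccne1 (1.26), Tex19.1 (1.22), Srxn1 (1.205) and Cav1 (1.203). Then followed Ccnd1 (1.15), Stat2 (1.14), Dhx58 (1.14), Thy1 (1.13), Rhox5 (1.09), Ccng1 (1.03), Tuba3b (1.02), Ndn (0.999) and Ddx58 (0.996). Smaller in size were Hoxa7 (0.99), Adar (0.99), Grem1 (0.96), Eif2s3y (0.92), Tgtp2 (0.9), Tex13b (0.88), Erap1 (0.87), Glipr1 (0.84) and Perp (0.79). Next came Cgas (0.75), Plk1 (0.72), Plac8 (0.699), Gvin1 (0.696), Rrm2 (0.68), Irf7 (0.67), Oas3 (0.64), Irgm1 (0.62) and Ddx3y (0.62). After these stood Aurka (0.61), Suv39h1 (0.57), Efemp1 (0.55), Uty (0.55), Uhrf1 (0.51), Ifih1 (0.49), Crabp2 (0.48), Mdm2 (0.41) and Irf9 (0.41). Below them were Thbs1 (0.41).

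Among the genes that rose in KO by less than in WT, the difference passed for 1, namely Spp1 (−1.3).

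Among the genes that fell in KO by more than in WT, or against a rise in WT, the difference passed for 61, led by C3 (−4.83), Plxna4 (−4.45), Lrrn4 (−4.45), Aldh1a2 (−4.31), Rspo1 (−4.26), H2-Q6 (−4.09), Fras1 (−4.04), Podxl (−4.03) and Lgals2 (−3.998). Others were Ptgds (−3.99), Upk3b (−3.98), Amhr2 (−3.95), H2-Q7 (−3.77), Saa3 (−3.77), Gpm6a (−3.76), C1qtnf7 (−3.68), Smtnl2 (−3.64) and Igfbp3 (−3.51). The list went on with Wipf3 (−3.44), Wt1 (−3.35), Krt7 (−3.35), Irf5 (−3.13), Cd55 (−2.897), Lpl (−2.88), H2-K1 (−2.87), Nxf3 (−2.86) and Aldh1a1 (−2.71). Further down came Gata4 (−2.71), Krt18 (−2.61), Mbp (−2.59), Bmp4 (−2.499), Nod1 (−2.11), Eln (−2.099), H2-Q4 (−2.09), Nnat (−2.06) and Pcp4l1 (−2.01). Lower still were Dcn (−1.97), Hoxb9 (−1.97), Gata6 (−1.84), Peg3 (−1.81), Nid2 (−1.66), Hoxc9 (−1.55), Des (−1.51), Gadd45a (−1.44) and Wnt5a (−1.34). The next differences were for Timp3 (−1.26), Ifnlr1 (−1.23), H19 (−1.21), Btg2 (−1.197), Col3a1 (−1.18), Zfp993 (−1.15), Fos (−1.07), Egr1 (−1.03) and Gsta4 (−0.85). Further values were for Smtn (−0.797), Il10rb (−0.69), Ddb2 (−0.63), Stat3 (−0.63), Tet3 (−0.53), Anp32a (−0.33) and Ifnar1 (−0.31).

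Among the genes that fell in KO by less than in WT, the difference passed for 3, namely Cxcl12 (0.93), Cdkn1b (0.42) and Sesn1 (0.41).

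Among the genes that did not pass in KO, the difference passed for 2, namely Msln (−2.196) and Sp100 (−1.14).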

How the results depend on the processing

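The count of genes that rose with DAC in KO was 3889 and lay between 3093 and 4359 under the alternatives that kept all libraries, and the count that fell was 3542 and lay between 2248 (filter at 5 FPKM, 9582 genes tested) and 3989. Leaving out 1 library gave 2783 to 3816 risen and 2609 to 3517 fallen genes, lowest without KO DMSO replicate 1. With the replicate block 3552 rose and 3139 fell. At 2-fold or more, 583 genes rose, against 1016 with a pseudocount of 0.1 and 1024 by limma-voom on recovered reads, and 575 to 597 with 1 library left out. At least 2-fold falls numbered 913, against 537 at the 5 FPKM filter and 1397 by limma-voom, and 880 to 936 with 1 library left out. A smaller pseudocount, or none, raises the fold change of low genes. In WT 2384 genes rose and 2274 fell, and with 1 library left out 1325 to 2612 rose and 1166 to 2127 fell, lowest without WT DMSO replicate 2. The KO minus WT difference passed upward in 2032 and downward in 1928 genes, and with 1 library left out in 1345 to 2036 and 1436 to 1992, lowest without KO DMSO replicate 1.

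Of 175 named genes 163 kept direction and call under every alternative run. Uty had a log2 fold change of −0.0789 after centring on chromosomes, where the Y chromosome has 9 tested genes, of which 7 rose before centring. Dnmt1 passed after that centring (limma log2 fold change 0.32, adjusted p = 0.0309). Library centring on medians moved the median log2 fold change of all genes to 0.05, and limma-voom to 0.01. With the filter at 5 FPKM, which tests fewer members, 6 complement, 6 Wnt, 1 Hox, 4 protocadherin and 4 Zfp900 to Zfp999 genes fell, and 6 secreted inflammatory factors and 3 IGF genes rose. With 2 KO DMSO libraries that stand apart together, leaving out either one does not remove what they share. Intervals from the depth of a library cover counting error only.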

Other observations

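Genes of other lineages were few among the genes tested and moved both ways with DAC in KO. Of 5 adipocyte markers 3 rose and 1 fell: Lpl, lipoprotein lipase, averaged 4.6 ± 0.333 FPKM in KO DAC, against 39 ± 0.019 FPKM in KO DMSO, and Pparg, the main factor of adipocytes, averaged 3.07 ± 0.201 FPKM in KO DAC, against 0.549 ± 0.0505 FPKM in KO DMSO (SD, n = 3 and 2). Both passed (limma log2 fold changes of −2.84 and 1.39). Of 4 neural and glial markers 3 rose and 1 fell, with Nes, the filament nestin of progenitors, at 17.7, 22.3 and 22.2 FPKM in KO DAC, against 5.31 and 5.73 FPKM in KO DMSO (limma log2 fold change 1.73 ± 0.14, adjusted p = 2.14e-05). Mbp, myelin basic protein, was at 0.84, 1.36 and 1.02 FPKM in KO DAC, against 10.5 and 10.7 FPKM in KO DMSO (limma log2 fold change −2.498 ± 0.12, adjusted p = 8.88e-07). Of 9 cartilage and bone markers 4 rose and 3 fell, with Spp1, the secreted phosphoprotein osteopontin, at 545, 526 and 552 FPKM in KO DAC, against 289 and 282 FPKM in KO DMSO (limma log2 fold change 0.92 ± 0.10, adjusted p = 8.54e-05). In WT Spp1 was at 746 ± 22.9 FPKM in WT DAC, against 161 ± 27.5 FPKM in WT DMSO, and the difference passed (limma difference of −1.3 ± 0.14, adjusted p = 0.000209).

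Matrix metalloproteinases and their inhibitors counted 6 rises and 5 falls of 16. Mmp3, a stromelysin, was at 45.1, 38.8 and 43.1 FPKM in KO DAC, against 18.6 and 17.4 FPKM in KO DMSO (limma log2 fold change 1.19 ± 0.09, adjusted p = 1.58e-05), and its inhibitor Timp1 rose as well (1.15). Mmp2, a gelatinase of resting fibroblasts, was at 50.7, 59 and 56.9 FPKM in KO DAC, against 107 and 116 FPKM in KO DMSO (limma log2 fold change −0.999 ± 0.08, adjusted p = 2.31e-05), and Timp3 fell (−1.09). Zinc finger genes numbered Zfp900 to Zfp999 counted 1 rise and 10 falls of 48, with Zfp993 at 3.57, 2.71 and 2.68 FPKM in KO DAC, against 11 and 10.03 FPKM in KO DMSO (limma log2 fold change −1.54 ± 0.16, adjusted p = 0.000101). The other 37 zinc finger genes did not pass. Among the 48 the share of falls was near the 21.6% of all genes, and the share of rises was below the 23.7% of all genes. Without KO DMSO replicate 2 their falls numbered 6 and their rises 2. A group of 9 predicted genes with neighbouring numbers, singled out after their values were seen, rose in both genotypes. Their log2 fold changes were 1.48 to 3.33 in KO and 1.83 to 3.94 in WT, and 0 of the 9 differed between the genotypes by the limma test at an adjusted p of 0.05.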
